A study of Homo sapiens with 4 samples.

Results

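The genes described here are 10 components of the mitochondrial route to apoptosis, taken from a fixed list of symbols out of the 58735 gene IDs in the tables: the guardians MCL1 and BCL2L1, the effector BAK1, the BH3-only genes BID, BAD, BIK, BCL2L11, BMF and PMAIP1, and the apoptosome scaffold gene APAF1. RNA was sequenced from 4 libraries of HT8, a cell line that the labels assign to colon cancer. Of these, 2 libraries carry the genotype label control and 2 the label PPDPF knockdown (source name HT8-cas1). No other treatment, allele or time is given for either group, and how the knockdown was made, whether it is a clone and what HT8 and HT8-cas1 stand for were not given in the sources used here. Each library came as a table of FPKM, reads scaled by exon length and by library size. Levels can be compared between genes only roughly. The length counts every annotated exon, used or not, and some genes share exon bases with others.

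The BCL2 family decides whether the outer mitochondrial membrane is opened during apoptosis. Guardians hold the pore-forming effectors in check, and BH3-only proteins, which share a short helix with the rest of the family, either occupy the guardians or activate the effectors directly. Once the membrane is open, cytochrome c reaches the cytosol and binds APAF1, which assembles into the apoptosome and activates caspase-9. Colon cancer cells commonly depend on MCL1 and BCL-xL, the protein of BCL2L1, for survival. Several of these genes give spliced forms with different activity, such as the short form of BCL2L1, and FPKM per gene does not separate them.

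The libraries held 17348315 and 19479906 reads in genes for control replicates 1 and 2, and 17330674 and 17069628 for the libraries labelled knockdown. PPDPF itself was not lower under the knockdown label, with 237 and 266 FPKM in control and 281 and 283 FPKM in the other group (limma adjusted p = 0.0940), and it was called higher in 4 of 12 other settings, with at least 5 FPKM (0.0459), voom with TMM factors (0.00433), voom on total reads (0.0105) and without control replicate 2 (0.0233), in a range of 0.00433 to 0.281. Each rise or fall below is therefore one of the libraries labelled knockdown relative to control. Of 11 colon epithelial markers, 10 passed the filter on low values, EPCAM at 183 to 204 FPKM and KRT8 at 917 to 1121 FPKM among them. GPA33 was at 0.191 FPKM or less. Of the 10 markers, 5 rose and 1 fell, beside 16.8% and 13.0% of all tested genes. Their part in the results below was not tested. KRT20, among those that rose, passed the filter only through the libraries labelled knockdown (mean 0.528 FPKM in control against 2.77 FPKM). Summed markers of fibroblasts, leukocytes and endothelium came to at most 0.723, 2.18 and 0.185 FPKM in any library, and PTPRC, CD3E, COL1A2, DCN, CDH5 and KDR were listed at 0 in all 4. CD14 made up most of the leukocyte sum, with 1.57 and 1.86 FPKM in control and 0.860 and 0.907 FPKM under the knockdown label. It passed the filter only through the controls and was called lower (limma adjusted p = 0.0335). In bulk RNA, fewer cells with a transcript and less of it per cell cannot be told apart. The labels name no separate cultures for the 2 libraries of either group, so the p-values rest on a spread that may be technical.

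Of the 10 genes, 9 had a mean of at least 1 FPKM and were tested, and 3 of them rose (BIK, APAF1 and MCL1) while 1 fell (BCL2L11). The remaining 5 tested genes (BCL2L1, BAK1, BID, BAD and PMAIP1) did not pass the threshold, and BMF lay under the filter. As background, 16.8% of all 12777 tested genes rose and 13.0% fell, 29.9% together, so 4 calls among 9 genes stand beside a background in which many genes were called. The median log2 fold change of the 9 was 0.12, against 0.00 over all genes tested, and the median absolute value was 0.20 against 0.15. In 8 of the 9 the libraries of the groups did not overlap, 6 higher and 2 lower under the knockdown label, where 69.7% of all tested genes showed such a separation. The fitted changes ran from 0.04 to 0.53 in size on the log2 scale. All fold changes and log2 fold changes are of FPKM + 1, which understates the change of low genes.

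**Figure D1:**
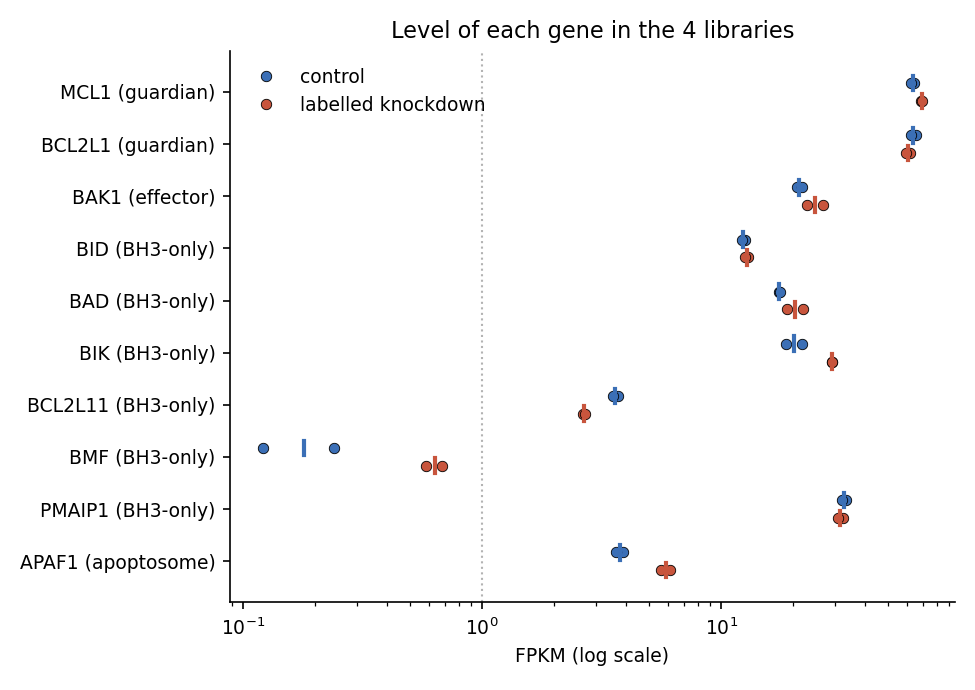
FPKM of each of the 10 genes (horizontal log axis) in the control libraries (blue points) and the libraries labelled knockdown (red points), n = 2 each, with the group mean as a vertical bar and 1 FPKM as a dotted line. BIK and APAF1 are shifted to the right under the knockdown label, BCL2L11 to the left, and BMF lies below 1 FPKM in every library.

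The guardians were the most abundant of the 10 genes in every library. MCL1 (ENSG00000143384, GRCh38 chromosome 1, 150574551 to 150579738, minus strand) encodes a short-lived protein that binds BAK1, BCL2L11 and PMAIP1. It had 64.3 and 62.5 FPKM in control and 68.8 and 69.1 FPKM under the knockdown label. Both libraries labelled knockdown were above both controls, and the means were 63.4 ± 1.30 and 69.0 ± 0.181 FPKM (SD, n = 2 each). This is a 1.09-fold rise with a 95% interval of 1.03 to 1.15 (limma adjusted p = 0.0437). The call stood close to the threshold. Leaving out any single library ended it, with a limma adjusted p of 0.0866 and 0.155 without control replicates 1 and 2, and of 0.141 and 0.152 without knockdown replicates 1 and 2. So did quantile normalization (0.131), scaling to non-mitochondrial reads (0.0524), the replicate block (0.0663) and the fit with no filter (0.0898), in a range of 0.00962 to 0.155 over 12 other settings.

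BCL2L1 (ENSG00000171552, chromosome 20, 31664452 to 31723989, minus strand), the gene of BCL-xL, had 65.3 and 62.1 FPKM in control and 61.7 and 59.6 FPKM under the knockdown label. The groups did not overlap, but control replicate 2 and knockdown replicate 1 lay next to each other. The fold change was 0.953 with a 95% interval of 0.888 to 1.02 (limma adjusted p = 0.252), so the interval includes falls to 0.888 of control and rises of 1.02-fold. The antisense gene ABALON shares 1424 exon bases with BCL2L1, which is 43.0% of its exon length. ABALON had 4.18 and 4.30 FPKM in control and 2.77 and 2.91 FPKM under the knockdown label (limma adjusted p = 0.00955), and since the strand setting of the counting is not given, reads of the shared bases cannot be assigned with certainty.

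Since MCL1 was higher and BCL2L1 level or lower, the ratio of MCL1 to BCL2L1 FPKM within a library was 0.985 and 1.01 in control and 1.11 and 1.16 under the knockdown label. In control the ranges of the guardians overlapped, while under the knockdown label MCL1 was above BCL2L1 in both libraries. The summed guardian FPKM was 130 and 125 in control and 131 and 129 in the other group, ranges that overlap.

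BAK1 (ENSG00000030110, chromosome 6, 33572547 to 33580293, minus strand) encodes the effector that sits in the outer mitochondrial membrane and is restrained there by MCL1 and BCL-xL. It had 20.7 and 21.8 FPKM in control and 22.9 and 26.6 FPKM under the knockdown label. The groups did not overlap, and most of the difference lay in knockdown replicate 2. The 1.15-fold difference (95% interval 1.01 to 1.32, not adjusted) did not pass the threshold (limma adjusted p = 0.104). Without knockdown replicate 1 it was called higher (limma adjusted p = 0.0406, log2 fold change 0.31), and without knockdown replicate 2 it was not (0.275, log2 fold change 0.10). Voom on recovered reads called it too (limma-voom adjusted p = 0.0221 with TMM factors and 0.0374 on total reads), as did the replicate block (limma adjusted p = 0.0490), within a range of 0.0221 to 0.304 over 12 settings. The pseudogene BAK1P1, which resembles its transcript, had 10 to 17 reads per library against 804 to 996 for BAK1.

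BIK showed the clearest rise among the BH3-only genes. BIK (ENSG00000100290, chromosome 22, 43110748 to 43129712, plus strand) encodes a BH3-only protein found mainly at the endoplasmic reticulum. It had 21.8 and 18.7 FPKM in control and 29.0 and 29.0 FPKM under the knockdown label, from 365, 351, 477 and 469 reads. Both libraries labelled knockdown were above both controls and nearly equal to each other. The means were 20.3 ± 2.15 and 29.0 ± 0.0158 FPKM, a 1.42-fold rise (95% interval 1.24 to 1.61, limma adjusted p = 0.00895). It was called without any 1 of the libraries (limma adjusted p = 0.0103 to 0.0454) and in 11 of 12 other settings, the exception being the fit with no filter on low values (0.0550). Among the 30 tested genes nearest to it on chromosome 22, 10 rose and 1 fell, with a median log2 fold change of 0.13 against 0.50 for BIK. The part of these neighbours in the rise of BIK was not tested, and BIK lay 0.37 above their median.

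BCL2L11 was the 1 gene of the 10 that fell. It encodes BIM, a BH3-only protein that binds every guardian and activates the effectors, and it lies on chromosome 2 (ENSG00000153094, 111119378 to 111168447, plus strand). It had 3.69 and 3.52 FPKM in control and 2.65 and 2.69 FPKM under the knockdown label, from 432, 461, 304 and 304 reads. The groups were well apart compared with the gap within each. The means were 3.61 ± 0.118 and 2.67 ± 0.0334 FPKM, which is 0.797 of control on FPKM + 1 (95% interval 0.703 to 0.903, limma adjusted p = 0.0260) and 0.740 of the mean control FPKM. Leaving out any single library ended the call, with a limma adjusted p of 0.119 and 0.0841 without control replicates 1 and 2, and of 0.0920 and 0.0830 without knockdown replicates 1 and 2. The replicate block (0.0510) and the fit with no filter (0.0900) ended it as well, while both voom fits called it (range over 11 settings 0.000684 to 0.119). The median log2 fold change of its 30 nearest tested genes was -0.01. The long noncoding gene MIR4435-2HG overlaps it on the opposite strand over 10.9% of its exon bases and had 1.28, 1.10, 1.27 and 1.25 FPKM, with no call (limma adjusted p = 0.792).

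BAD and BID did not pass the test. BAD (ENSG00000002330, chromosome 11, 64269830 to 64284704, minus strand), which binds BCL2 and BCL-xL but not MCL1 and is switched off by survival kinases, had 17.4 and 17.6 FPKM in control and 22.0 and 18.8 FPKM under the knockdown label. Knockdown replicate 1 carried most of the difference. The fold change was 1.15 (95% interval 1.00 to 1.32, not adjusted, limma adjusted p = 0.107), and it was called without knockdown replicate 2 (0.0306, log2 fold change 0.31) but not without knockdown replicate 1 (0.266, log2 fold change 0.10), in a range of 0.0306 to 0.274 over 12 settings. Of its exon bases, 23.7% overlap GPR137 on the opposite strand, which had 10.1 to 11.3 FPKM and no call (limma adjusted p = 0.273). Among its 30 neighbours on chromosome 11, 11 rose and 2 fell, at a median log2 fold change of 0.09.

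BID (ENSG00000015475, chromosome 22, 17734138 to 17774770, minus strand), which caspase-8 cleaves to join the death receptor route to mitochondria, had 12.6 and 12.2 FPKM in control and 13.0 and 12.6 FPKM under the knockdown label. The nearest libraries of the groups were almost level. The fold change was 1.03 with a 95% interval of 0.955 to 1.11 (limma adjusted p = 0.482), and BID was called in none of 12 other settings.

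PMAIP1 (ENSG00000141682, chromosome 18, 59899948 to 59904306, plus strand) encodes NOXA, a short BH3-only protein that binds MCL1 and promotes its breakdown. It was the most abundant BH3-only gene, with 33.3 and 32.1 FPKM in control and 32.2 and 30.9 FPKM under the knockdown label. PMAIP1 was the 1 tested gene of the 10 whose groups overlapped. The fold change was 0.966 with a 95% interval of 0.900 to 1.04 (limma adjusted p = 0.389), and no other setting of 12 called it. The ratio of PMAIP1 to MCL1 FPKM within a library was 0.518 and 0.515 in control and 0.468 and 0.447 under the knockdown label.

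BMF (chromosome 15, 40087890 to 40108892, minus strand), whose BH3-only protein is held at the cytoskeleton in attached cells, was the lowest of the 10. It had 0.240 and 0.121 FPKM in control and 0.681 and 0.585 FPKM under the knockdown label, from 23, 13, 64 and 54 reads. Both libraries labelled knockdown were above both controls. The summed reads, 36 against 118, give a depth-adjusted ratio of 3.51 with an exact (Clopper-Pearson) 95% interval of 2.40 to 5.25 that covers counting error only and compares these libraries. In the fit with no filter BMF had a log2 fold change of 0.47, which missed the threshold (limma adjusted p = 0.0900).

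**Figure D2:**
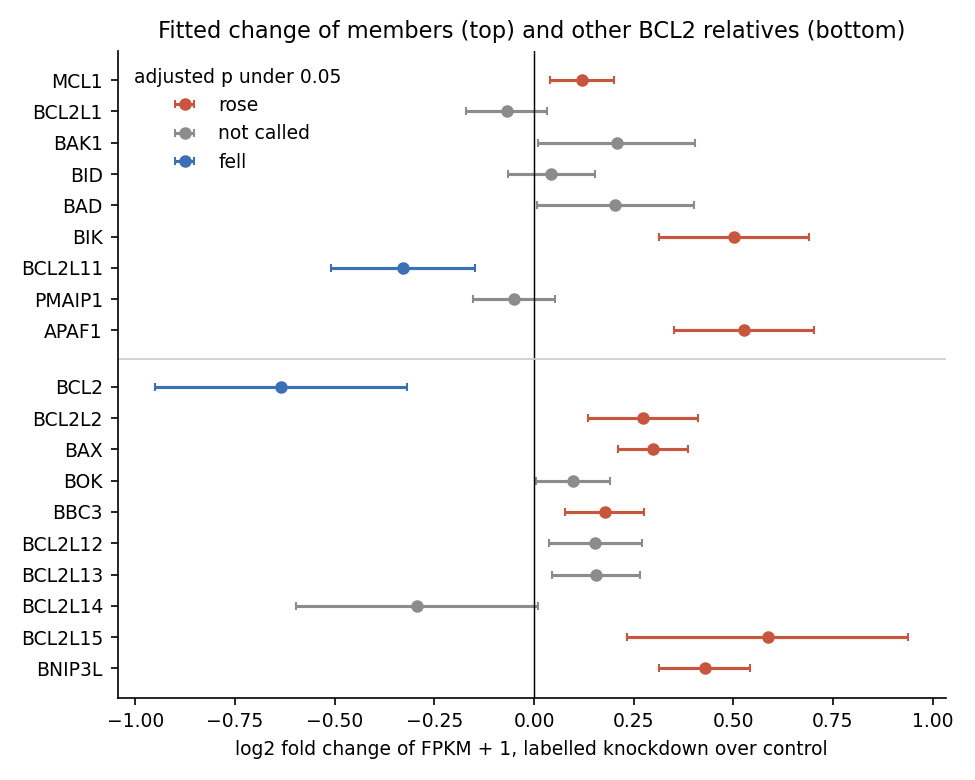
Fitted log2 fold change of FPKM + 1 (labelled knockdown over control) with its unadjusted 95% interval for the 9 tested genes of the set above the line and 10 tested BCL2 relatives below it, coloured by call at an adjusted p under 0.05. BIK and APAF1 lie near 0.5, BCL2L11 at -0.33, and the intervals of BCL2L1, BID and PMAIP1 include 0.

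Of the 5 tested BH3-only genes, 1 was called higher (BIK), 1 lower (BCL2L11) and 3 were not called, shares near the 16.8% and 13.0% of all tested genes. The summed FPKM of all 6 BH3-only genes, the untested BMF included, was 88.9 and 84.4 in control and 99.5 and 94.6 under the knockdown label. BIK made up 24.5% and 22.2% of that sum in control and 29.1% and 30.7% in the other group, while PMAIP1 went from 37.4% and 38.1% to 32.4% and 32.7%. The ratio of the BH3-only sum to the guardian sum was 0.686 and 0.678 in control and 0.762 and 0.735 under the knockdown label. None of these sums or ratios was tested. They rest on FPKM, which compares genes only roughly, and on transcripts, not proteins.

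**Figure D3:**
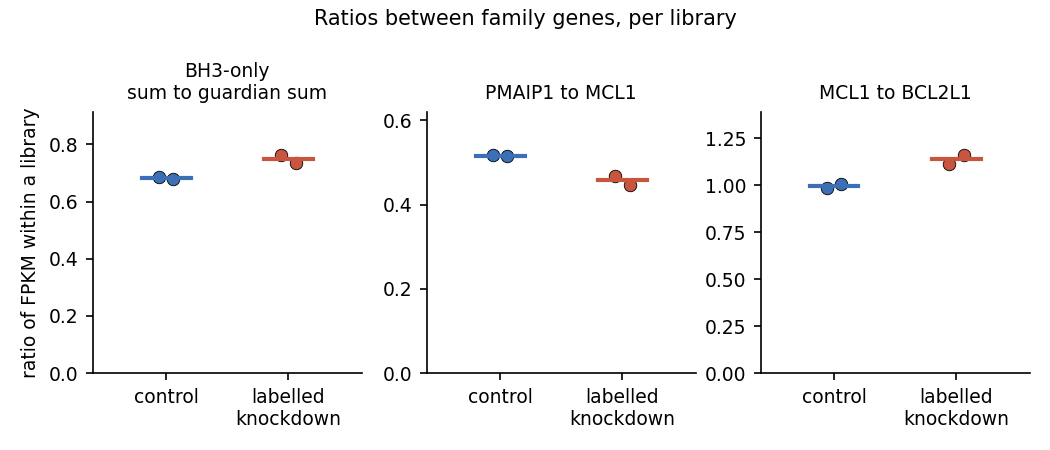
Ratios of FPKM within each library for the BH3-only sum to the guardian sum, PMAIP1 to MCL1, and MCL1 to BCL2L1 (vertical axes from 0), with 2 points per group and a bar at the mean. The first and the last ratio are higher in both libraries labelled knockdown than in both controls, and PMAIP1 to MCL1 is lower in both.

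APAF1 showed the largest fitted change of the 9 tested genes. APAF1 (ENSG00000120868, chromosome 12, 98645141 to 98735433, plus strand) encodes the scaffold on which caspase-9 is activated, and it is a known target of E2F1. It had 3.89 and 3.64 FPKM in control and 6.11 and 5.62 FPKM under the knockdown label, from 541, 565, 834 and 754 reads. The lower library of the knockdown label was well above the higher control. The means were 3.76 ± 0.180 and 5.87 ± 0.345 FPKM, a 1.44-fold rise (95% interval 1.28 to 1.63, limma adjusted p = 0.00635) and 1.56 times the mean control FPKM. APAF1 was called in all 11 other settings that could test it (adjusted p 4.05e-07 to 0.0378), each library left out in turn included. Its 30 neighbours on chromosome 12 had a median log2 fold change of -0.06, with 5 that rose and 6 that fell, so APAF1 lay 0.59 above them. ANKS1B overlaps 9.48% of its exon bases on the opposite strand and was listed at 0 in all 4 libraries.

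**Figure D4:**
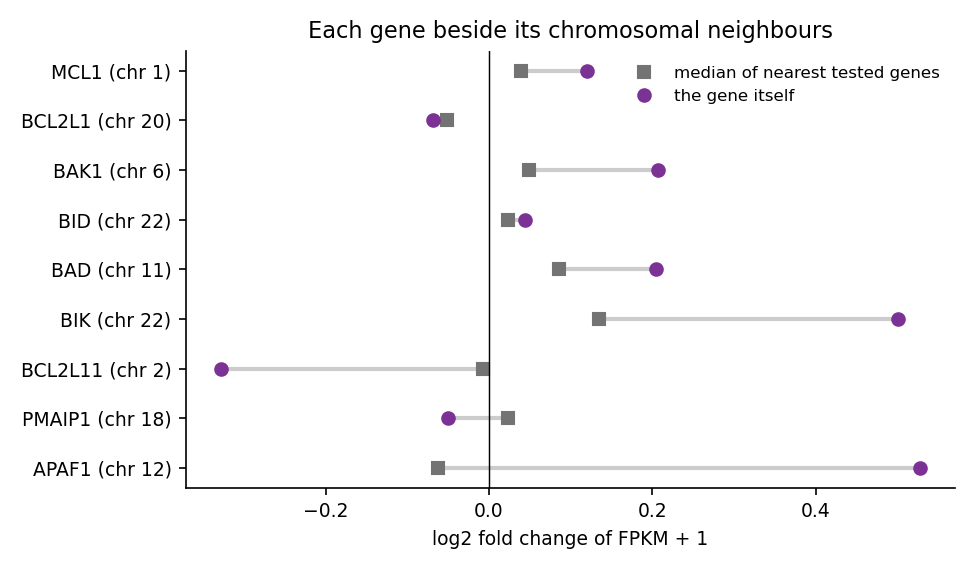
Log2 fold change of FPKM + 1 for each of the 9 tested genes (purple circles) and the median of the nearest tested genes on its chromosome (grey squares, 30 genes, or 19 for BID). APAF1, BCL2L11 and BIK lie far from their neighbours' medians, and BCL2L1 and BID close to them.

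The stretches of 250 bases before the RefSeq start of APAF1 and BCL2L11, the called genes whose start the RefSeq promoter table holds, are shown because these genes changed in opposite directions (8 of the 10 genes matched the table by symbol, build GRCh38.p14, chr12:98645040-98645289 and chr2:111120664-111120913, both on the plus strand). RefSeq places both starts downstream of the GENCODE gene starts given above, so the stretch of BCL2L11 lies inside the GENCODE gene and that of APAF1 runs into it. Capitals mark matches, on either strand, to any of the GC box GGGCGG, the NF-Y site CCAAT, the TATA box TATAAA, the cAMP response element TGACGTCA, the forkhead site GTAAACA and the E2F site TTTGGCGC.
APAF1: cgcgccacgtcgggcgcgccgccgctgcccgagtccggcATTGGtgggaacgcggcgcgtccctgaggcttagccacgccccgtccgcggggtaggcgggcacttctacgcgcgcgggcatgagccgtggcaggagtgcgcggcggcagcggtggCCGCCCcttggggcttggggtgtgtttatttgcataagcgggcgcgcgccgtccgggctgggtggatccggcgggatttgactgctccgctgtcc
BCL2L11: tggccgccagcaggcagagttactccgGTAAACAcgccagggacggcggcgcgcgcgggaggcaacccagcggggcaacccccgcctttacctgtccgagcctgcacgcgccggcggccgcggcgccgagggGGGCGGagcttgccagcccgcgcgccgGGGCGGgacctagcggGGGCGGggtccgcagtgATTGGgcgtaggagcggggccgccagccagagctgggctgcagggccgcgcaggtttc

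Both stretches are rich in G and C (73.6% for APAF1 and 76.8% for BCL2L11, against a median of 58.0% over 35116 promoters). Each holds 1 CCAAT match, which 32.0% of all promoters have. APAF1 holds 1 GC box and BCL2L11 holds 3, and 42.6% of promoters hold at least 1. BCL2L11 also holds 1 forkhead match, which 2.98% of promoters have, and APAF1 holds none. Neither stretch holds a match to the E2F letters searched, the TATA box or the cAMP response element. Of all promoters, 0.550%, 10.7% and 1.65% have these. Every motif was searched as the exact letters given above, so variant forms of a site, E2F included, were not looked for. These matches are letters in a window and say nothing about binding.

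Of 14 other listed BCL2 relatives, 10 were tested, and 5 rose and 1 fell, at a median log2 fold change of 0.17. Over all tested genes, 16.8% rose and 13.0% fell at a median of 0.00, and these shares are the background of each list count that follows. BAX, the effector that moves from the cytosol to mitochondria, was at 58.1 ± 0.370 FPKM in control and rose to 71.6 ± 2.09 FPKM (1.23-fold, limma adjusted p = 0.00469). Of BAX and BAK1 the test thus called only BAX, and the difference between these genes was not tested. BOK, of the same list, was not called either (1.07-fold, limma adjusted p = 0.104). BNIP3L, a mitophagy receptor with a BH3-like stretch, rose 1.35-fold (limma adjusted p = 0.00363). BCL2, the founding guardian, was low and fell from 1.63 ± 0.0827 to 0.693 ± 0.0300 FPKM (limma adjusted p = 0.0198), a call that no fit without a library kept (0.0671 to 0.0918, over 11 settings 9.83e-08 to 0.0918). The others that rose, named after their values were seen, were the guardian BCL2L2 (1.21-fold), the BH3-only gene BBC3, which encodes PUMA (1.13-fold), and BCL2L15 (1.50-fold, at 0.977 ± 0.214 FPKM in control). BCL2L15 had 1.97 ± 0.239 FPKM under the knockdown label. BCL2L15 and BCL2 each passed the filter only through the group where they were high, so their group difference brought them into the test. How the calls of BCL2L2, BBC3 and BCL2L15 depend on the settings is not given here. BCL2L10, a further guardian named in the same way, lay under the filter with 22 and 21 reads in control against 1 and 0, a depth-adjusted ratio of 0.0249 (exact 95% interval 0.000616 to 0.146, counting error only). HRK and BCL2A1 were listed at 0 in all 4 libraries, which at 3 reads allows up to 0.0256 and 0.161 FPKM.

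Of 11 tested genes of the caspases and of proteins released from mitochondria, 1 rose and 0 fell, at a median log2 fold change of -0.10, where 29.9% of all tested genes were called in either direction. CASP2, an initiator caspase, rose 1.16-fold (limma adjusted p = 0.0294), though its 30 neighbours on chromosome 7 had the same median log2 fold change (0.21 against 0.22), 13 of them called higher, and no fit without a library kept the call (0.0619 to 0.116, over 12 settings 0.00111 to 0.116). CYCS, which encodes the cytochrome c that binds APAF1, had 39.7 ± 0.842 and 36.8 ± 0.0964 FPKM (limma adjusted p = 0.0685). CASP9, named as the direct partner of APAF1, had 2.40 and 2.90 FPKM in control and 3.17 and 3.29 FPKM under the knockdown label (limma adjusted p = 0.150). The scaffold thus changed by a log2 fold change of 0.53 while its caspase had 0.22 and its cytochrome c -0.11, differences between genes that were not tested.

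Caspase inhibitors of the IAP family numbered 5 tested genes, of which 3 rose and 1 fell, beside 16.8% and 13.0% of all tested genes. BIRC3 had 2.10 and 2.08 FPKM in control and 5.23 and 5.14 FPKM under the knockdown label (2.00-fold, limma adjusted p = 0.00139), and BIRC2 rose 1.13-fold (0.0364). XIAP, which inhibits the caspases that APAF1 sets off and was named after its values were seen, rose 1.13-fold as well (limma adjusted p = 0.0447). This call stood close to the threshold, and how it depends on the settings is not given here. BIRC5, which encodes survivin, fell to 0.854 of control (limma adjusted p = 0.0309). The call of BIRC2 was lost without each of the libraries (limma adjusted p 0.0918 to 0.144, over 12 settings from 0.0212) and with the replicate block (0.0591). That of BIRC5 was lost without control replicate 1 (0.113), knockdown replicate 1 (0.123) or knockdown replicate 2 (0.0666) and with the replicate block (0.0536), in a range of 0.000392 to 0.123 over 12 settings.

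At the mitochondrial surface, 2 of 7 tested partners of the family rose and 1 fell, beside 16.8% and 13.0% of all tested genes. VDAC1, a channel of the outer membrane, was at 95.8 ± 1.30 FPKM in control and rose to 118 ± 0.0351 FPKM (1.23-fold, limma adjusted p = 0.00302), and MTCH2, the receptor for cleaved BID, 1.12-fold (0.0336). The hexokinase HK2 fell to 0.838 of control (limma adjusted p = 0.00721). Among death receptor genes, 2 of 11 tested rose and 0 fell, a share of rises near the 16.8% of all tested genes. TNFRSF1A and FAS rose 1.18 and 1.17-fold (limma adjusted p = 0.0215 and 0.0362), and CFLAR, the inhibitor of caspase-8, had a fold change of 1.14 (0.0575). No fit without a library kept the calls of MTCH2 and FAS, and TNFRSF1A lost its call without control replicate 1 or knockdown replicate 2 (over 12 settings, limma adjusted p 0.00709 to 0.137, 0.00444 to 0.138 and 0.000524 to 0.0912).

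Of 7 tested genes that act on the stability of MCL1, 2 rose and 0 fell, a share near the 29.9% of all tested genes called in either direction. The ubiquitin ligase MARCHF5 rose 1.14-fold (limma adjusted p = 0.0286) and the ERK phosphatase DUSP6 1.12-fold (0.0432). The deubiquitinase USP13 had 5.91 ± 0.514 and 4.77 ± 0.363 FPKM (limma adjusted p = 0.0700). No fit without a library kept either call (limma adjusted p 0.0672 to 0.119 for MARCHF5 and 0.0854 to 0.167 for DUSP6, over 12 settings from 0.00574 and 0.00843).

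Transcription factors known to act on the family moved in both directions, with 4 of 11 tested that rose and 3 that fell, beside 16.8% and 13.0% of all tested genes. FOXO1, known to raise BCL2L11 transcription, had 2.97 and 3.52 FPKM in control and 8.39 and 7.60 FPKM under the knockdown label (2.12-fold, limma adjusted p = 0.00212), in a stretch of chromosome 13 where 13 of 30 neighbours rose at a median log2 fold change of 0.19. E2F1 fell from 18.1 ± 0.312 to 13.4 ± 0.349 FPKM (0.755 of control, limma adjusted p = 0.00355). Among the others called, named after their values were seen, FOXO3, JUN and RELA rose 1.28, 1.26 and 1.19-fold (limma adjusted p = 0.0156, 0.0259 and 0.0191). DDIT3, named in the same way, fell to 0.851 of control (limma adjusted p = 0.0263). How these further calls depend on the settings is not given here. Beside these values stand the fall of BCL2L11 and the rise of APAF1. Whether the factors have a part in either was not tested.

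**Figure D5:**
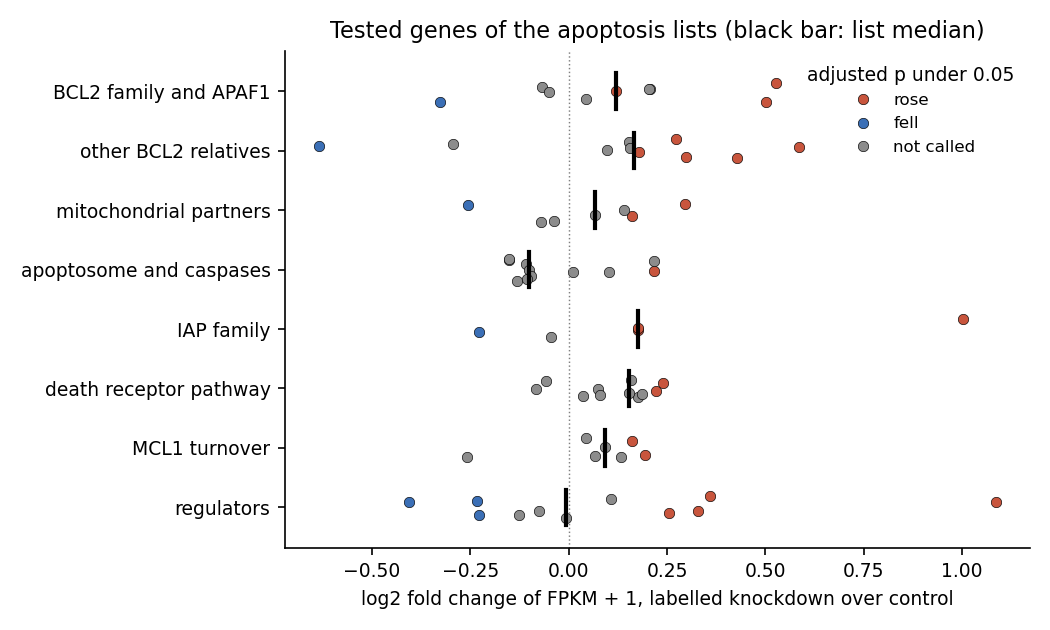
Log2 fold change of FPKM + 1 for every tested gene of the BCL2 family set and 7 lists of related genes (rows), coloured by call at an adjusted p under 0.05, with the median of each row as a black bar. Medians lie between -0.10 for the caspases and 0.18 for the IAP family, and BIRC3 and FOXO1 stand farthest to the right.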

How the data were processed

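RNA was measured in 4 libraries, grouped by genotype label. HISAT2 2.0.5 and hg18 appear in the submitters' processing notes. The authors deposited FPKM per gene, 1 table per library, per the file headers. How reads were counted, with which strand setting and filters, was not given in the sources used here. All 58735 IDs matched GENCODE 29 (GRCh38), which gave symbols, coordinates and exon lengths. FPKM multiplied by exon length and by a divisor recovered for each library gave whole reads for 100% of values above 0 (within 0.01 read), and these are the reads printed. The exon lengths behind the deposited FPKM thus match GENCODE 29 on GRCh38, in conflict with the hg18 of the notes. The build used for alignment is not settled by this. Within a group, replicates differed beyond sampling noise (chi-square per gene 2.63 and 2.46).

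Genes with a mean of at least 1 FPKM (12777) entered a limma-trend fit of log2(FPKM + 1) in limma 3.58.1 and R 4.3.3, with group as the only term and Benjamini-Hochberg adjustment over all of them, two-sided, called at an adjusted p under 0.05. Intervals of fold changes are not adjusted. Neighbours are the 15 tested genes on each side. Motifs were chosen after the calls were known. Alternatives were quantile normalization, non-mitochondrial scaling, no filter, at least 5 FPKM, pseudocount 0.1, voom, a replicate block, each library left out and an adjusted p under 0.01. The fit was tested on data simulated from the control means and library sizes of this comparison (12899 genes). There 20.0% of 1.25-fold changes, 66.0% of 1.5-fold and 92.0% of 2-fold changes were recovered, with 9 false calls among 148. Only 50 genes were changed at each size, with the same set spread for all genes, whereas 29.9% of tested genes were called here. The shares recovered and the false calls therefore need not hold for the real fit.

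The genes and lists were chosen with earlier results of these data known. The rule named all 10 genes, PPDPF, and up to 3 tested genes with the smallest p per other list, of which 2 are not reported here. MARCHF5 is MARCH5 in GENCODE 29, and DIABLO, split over 2 IDs, is not described. Python 3.11.15, pandas 2.3.3, numpy 2.4.6, scipy 1.17.1 and matplotlib 3.10.9 made tables and figures.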

Additional observations from a re-analysis of the deposited data

How the results depend on the processing

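No change of direction occurred in any of the genes named by the rule under any alternative that could test it. The number of the 10 genes called higher (3) became 1 with no filter and 5 with voom and TMM factors, and stood at 2 to 3 when single libraries were left out. The number called lower (1) became 0 with no filter, with at least 5 FPKM (where BCL2L11 and APAF1 are not tested), with the replicate block and at an adjusted p under 0.01, and was 0 to 0 without single libraries. Across the table, 2152 genes rose and 1662 fell. With no filter these were 1134 and 734, at an adjusted p under 0.01 927 and 589, with voom on total reads 2709 fell, and without single libraries 1141 to 1345 rose and 775 to 919 fell. Same-numbered libraries did not deviate together (correlation -0.00 across genes), so the block pairs them by number only, and with it 1899 rose and 1405 fell, and 3 (BIK, APAF1 and BAK1) and 0 of the 10. Fits without a library have 1 residual degree of freedom and take the lone library to vary like the other group. Depth limits BMF most, at 13 to 64 reads.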
